A study of Mus musculus with 6 samples.

Results

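Sulf1, Sulf2, the 4 syndecans, 3 glypicans and perlecan were followed in alveolar type II cells of Stat3Δ/Δ and control mice. All probe sets that the platform annotation assigns to 1 of these 10 genes alone were taken, which gave 25 of the 45101 probe sets on the array. They make up 10 of the 18193 genes that a probe set names alone. The genes were selected on the difference in signal between Stat3Δ/Δ and control cells on these same arrays, so their fold changes, and counts of members past the study's thresholds, are a description and support nothing. Heparan sulfate proteoglycans are core proteins that carry long sulfated sugar chains at the cell surface or in the basement membrane. The chains hold growth factors such as fibroblast growth factors, WNTs and bone morphogenetic proteins near their receptors, and the pattern of sulfate groups sets which of these factors bind. SULF1 and SULF2 are secreted enzymes that remove 6-O-sulfate groups from finished chains, outside the cell.

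Stat3Δ/Δ mice carried SP-C-rtTA and (tetO)7CMV-Cre together with Stat3flx/flx, and doxycycline given to the dams removes exon 21 of Stat3 from respiratory epithelial cells before birth. Because the SP-C promoter drives the transgene, other lung cells keep the gene. Control cells came from littermates without the deletion, and the sources differ on their genotype. Their source label names SP-C-rtTA and (tetO)7CMV-Cre and is silent on Stat3flx/flx, their description names all 3 alleles as for Stat3Δ/Δ, their titles call them wild-type, and the study's methods describe 1 of these transgenes with Stat3flx/flx. As littermates, controls were exposed to doxycycline too. Mice were 8 weeks old. Each group had 3 pools, each made from the type II cells of 3 mice and hybridized to 1 MOE430 array. The isolates can hold other lung cells, alveolar macrophages above all by the study's own account. By a Papanicolaou stain, the study found mostly type II cells, with no difference in their purity or number between the groups.

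Signals are linear values from Affymetrix Microarray Suite 5.0, and their median ran from 282.8 to 381.2 over the 6 arrays. Type II cell transcripts were among the brightest, with the surfactant genes Sftpc, Sftpb and Sftpa1 above the 99.9th percentile of mean signal, but so was the airway secretory product Scgb1a1. Stat3, the targeted gene, has 4 probe sets. Of these, 2 separated the groups with lower signals after deletion, at log2 fold changes of -0.71 and -0.80, and the other two gave -0.046 and 0.60. Which of them read exon 21 was not analysed here. The sample titles carry a leading number of unstated meaning that Stat3Δ/Δ pools 1 and 2 share with control pool 3, and values within these 3 arrays are given beside the results. RNA integrity also differed in its measured values. For Actb, signal at the 3' end over signal at the 5' end, as a log2 ratio of control probe sets, averaged 0.39 ± 0.046 after deletion and 0.64 ± 0.17 in controls (SD, n = 3 pools). For Gapdh these means were -0.41 ± 0.099 and 0.020 ± 0.26. An exact permutation test (two-sided) gave p = 0.1 for each, and no smaller p is possible with 3 pools against 3.

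Sulf1 was the member with the widest separation between the groups. Its brightest probe set had signals of 463.9, 388.8 and 356.9 in Stat3Δ/Δ pools 1 to 3 and of 1047, 1067.4 and 1040.8 in control pools 1 to 3. The groups were far apart, and the pools within a group were close together. On the log2(signal + 69.9) scale after normalization, Stat3Δ/Δ pools averaged 8.81 ± 0.090 and control pools 10.15 ± 0.10 (SD, n = 3 each). On this scale the difference was -1.34 (standard error 0.23), a 2.53-fold lower level. Among the 3 arrays with a common leading title number it was -1.15. The pooled standard deviation within the groups was 0.096, against a median of 0.40 over all probe sets. Among the 18193 genes, each taken by its brightest probe set, 100 had a lower log2 fold change than Sulf1.

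The second probe set of Sulf1 showed the same order at a lower signal. It had 77.6, 237.6 and 167.8 in Stat3Δ/Δ pools 1 to 3 and 478.6, 389.7 and 427.2 in control pools 1 to 3. The groups again did not overlap, although the Stat3Δ/Δ pools were spread more widely. Its log2 fold change was -1.31 (standard error 0.34), or -1.24 within the shared title number. The third was dim, at the 18.1th percentile of mean signal. It had 203.5, 56.5 and 51.4 in Stat3Δ/Δ cells and 119.8, 50.9 and 21.3 in control cells, so that the groups overlapped and 4 of the 6 values lay under the 69.9 added before taking logarithms. Fewer cells of a type that expresses Sulf1 and less Sulf1 mRNA per cell cannot be told apart in pooled cells.

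**Figure D1:**
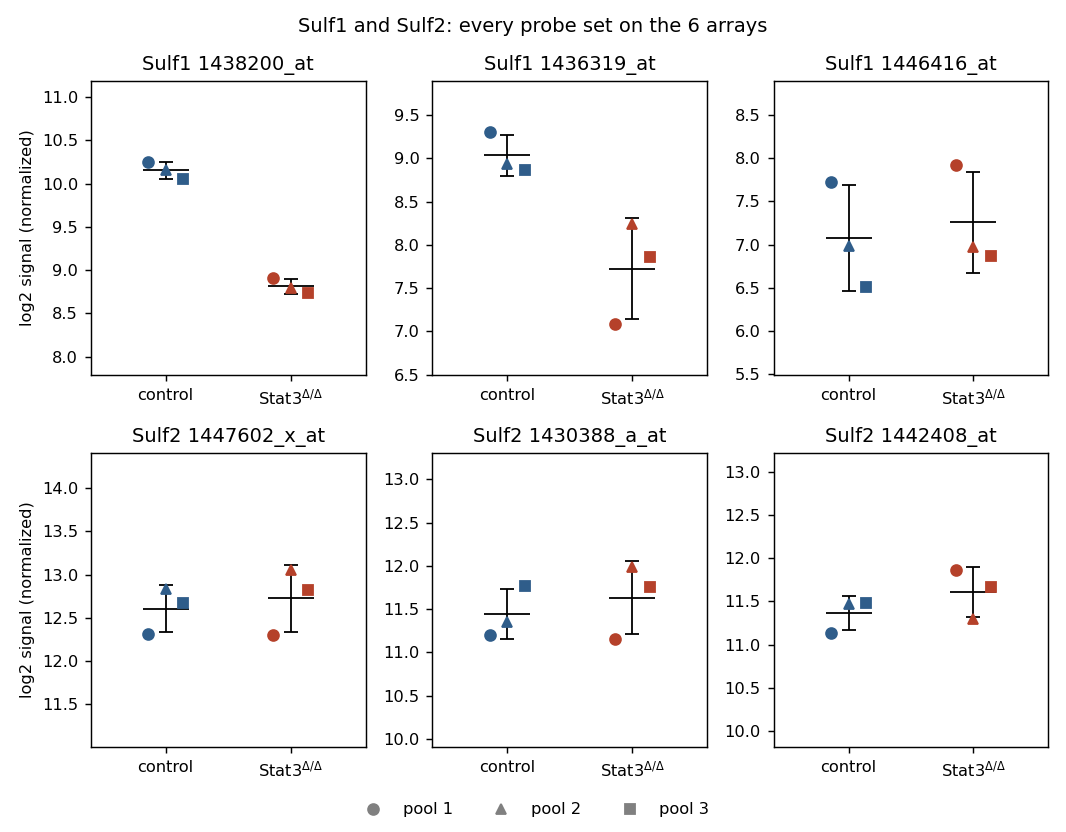
Normalized log2 signal of the 3 probe sets of Sulf1 (upper row) and the 3 of Sulf2 (lower row) on each array, with control pools in blue, Stat3Δ/Δ pools in red, the mean as a bar and the SD (n = 3) as whiskers; each panel spans the same number of log2 units. Panels run from the brightest probe set of a gene (left) to the dimmest; the 2 brighter ones of Sulf1 lie lower in all 3 Stat3Δ/Δ pools, while the third and all probe sets of Sulf2 overlap.

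Sulf2, which has the same enzymatic activity as Sulf1, did not separate the groups in any of its 3 probe sets. The brightest had signals of 5014.1, 8446.3 and 7092.2 in Stat3Δ/Δ pools 1 to 3 and 5036.7, 7250.4 and 6374.2 in control pools 1 to 3. The first pool was the lowest in both groups. Its log2 fold change was 0.12 (standard error 0.29), and median centring of the arrays turned it to -0.020. Its identifier marks it as open to cross-hybridization with other transcripts. The other two, in order of brightness, gave 0.19 (standard error 0.31) and 0.25 (standard error 0.27). For the arrays of the shared title number the 3 values were -0.00097, -0.19 and 0.091.

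Promoter sequence is shown for Sulf2, the paralogue of Sulf1, and further on for Sdc4 and Gpc3, whose brightest probe sets separated the groups. Each sequence holds the 250 bases before a RefSeq start of the gene in build GRCm38.p6, read 5′ to 3′ on the gene's strand. Capitals mark GGGCGG on either strand, the core of the GC box that SP1 family factors bind. The table of promoters held 7 of the 10 genes with 8 starts, and Sulf1, Sdc2 and Gpc1 were not among them. The first Sulf2 window is chr2:166155684-166155933 on the minus strand, with 1 GC box.

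Sulf2: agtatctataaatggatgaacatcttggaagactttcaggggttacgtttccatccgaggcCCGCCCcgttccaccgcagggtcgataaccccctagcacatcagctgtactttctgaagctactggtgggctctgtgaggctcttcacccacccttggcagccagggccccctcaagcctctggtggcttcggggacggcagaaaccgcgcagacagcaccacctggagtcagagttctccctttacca

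The palindrome TTCNNNGAA, which STAT dimers bind, was found in none of the 8 windows of these genes and in 7.02% of the 32851 windows of the whole table. GGGCGG was found in 7 of the 8 windows and in 32.7% of all windows. These letters alone do not show whether a factor binds.

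The syndecans are transmembrane proteoglycans. Sdc1, the syndecan typical of epithelia, had a bright signal on every array, and its 4 probe sets lay between the 95.7th and the 99.2th percentile of mean signal. The brightest had 31643, 40951 and 54252.5 in Stat3Δ/Δ pools 1 to 3 and 61396.5, 48234.5 and 51704.1 in control pools 1 to 3. Stat3Δ/Δ pools 1 and 2 were the lowest, and pool 3 lay among the controls. Its log2 fold change was -0.24 (standard error 0.26), and its identifier also marks it as open to cross-hybridization. In order of brightness, the other 3 probe sets gave -0.25 (standard error 0.28), 0.46 (standard error 0.33) and -0.45 (standard error 0.31). All 4 lay below 0 within the shared title number, at -0.39, -0.32, -0.21 and -0.79.

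Sdc4, a syndecan of focal adhesions, separated the groups in 1 of its 2 probe sets. For the brighter the signals were 19187.5, 18714.9 and 15058.1 in Stat3Δ/Δ pools 1 to 3 and 30443.4, 23827.2 and 20803.6 in control pools 1 to 3. All Stat3Δ/Δ pools were below all control pools, by little between Stat3Δ/Δ pool 1 and control pool 3. This gave a log2 fold change of -0.41 (standard error 0.26), which was -0.094 within the shared title number. The other probe set overlapped and gave -0.22 (standard error 0.31). The Sdc4 window is chr2:164443189-164443438 on the minus strand and holds 4 GC boxes.

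Sdc4: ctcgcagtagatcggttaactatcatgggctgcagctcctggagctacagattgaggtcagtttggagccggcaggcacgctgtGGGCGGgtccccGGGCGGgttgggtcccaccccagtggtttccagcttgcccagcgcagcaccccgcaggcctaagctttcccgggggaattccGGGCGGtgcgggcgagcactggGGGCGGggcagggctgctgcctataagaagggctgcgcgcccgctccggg

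Sdc2 and Sdc3, the syndecans of mesenchymal and of neural cells, varied widely between the pools of a group. The brightest probe set of Sdc2 had signals of 745.5, 2007.9 and 1163 in Stat3Δ/Δ pools 1 to 3 and 2260.8, 2491.6 and 1079.1 in control pools 1 to 3. The low values were those of Stat3Δ/Δ pools 1 and 3 and of control pool 3. Its log2 fold change of -0.60 (standard error 0.46) turned to 0.19 within the shared title number. The other 3 probe sets of Sdc2 gave 0.28, -0.52 and 0.044, the last of them at the 16th percentile of mean signal. The brightest probe set of Sdc3 had 1745.2, 2423.9 and 2092.1 in Stat3Δ/Δ pools 1 to 3 and 1199.8, 2320.4 and 910.7 in control pools 1 to 3. Control pool 2 lay within the Stat3Δ/Δ range, and the other controls lay below it. It gave 0.55 (standard error 0.37), with 1.13 within the shared title number and 0.90 without control pool 2. The other two probe sets gave -0.30 and 0.73.

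The glypicans are bound to the membrane by a lipid anchor. Gpc3, which is mutated in an overgrowth syndrome and modulates hedgehog and WNT signals, was the 1 member with all Stat3Δ/Δ pools above all control pools. The signals of its single probe set were 1203.3, 1306.1 and 1389 in Stat3Δ/Δ pools 1 to 3 and 915.4, 586.5 and 773.1 in control pools 1 to 3. The Stat3Δ/Δ pools were close together, and the controls were more spread. Normalized log2 signals averaged 10.40 ± 0.15 after deletion and 9.71 ± 0.34 in controls (SD, n = 3 pools each). The difference was 0.69 (standard error 0.27) on this scale, a 1.61-fold higher level, and 0.66 within the shared title number. The Gpc3 window is chrX:52613975-52614224 on the minus strand, with 3 GC boxes.

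Gpc3: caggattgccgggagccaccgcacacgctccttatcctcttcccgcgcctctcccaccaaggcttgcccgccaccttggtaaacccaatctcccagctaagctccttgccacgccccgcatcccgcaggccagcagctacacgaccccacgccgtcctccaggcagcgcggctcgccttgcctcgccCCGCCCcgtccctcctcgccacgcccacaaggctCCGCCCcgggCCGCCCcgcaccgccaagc

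The brighter probe set of Gpc4 had signals of 2459.1, 2897 and 3669 in Stat3Δ/Δ pools 1 to 3 and 4661.1, 3394 and 3465.7 in control pools 1 to 3. Stat3Δ/Δ pools 1 and 2 lay below the controls and pool 3 among them. It gave -0.35 (standard error 0.28), whereas the second stood at -1.8e-05 (standard error 0.24) on the log2 scale. Gpc1, the broadly expressed glypican, had from 618.2 to 773.6 in Stat3Δ/Δ cells and from 671.7 to 705.6 in control cells. Its log2 fold change was -0.088 (standard error 0.25), and it turned to 0.0024 with no normalization between arrays.

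Perlecan, the large heparan sulfate proteoglycan of basement membranes, is encoded by Hspg2. Its brighter probe set had signals of 2182.9, 1189.1 and 1392.4 in Stat3Δ/Δ pools 1 to 3 and 1819.6, 1742.7 and 1588.2 in control pools 1 to 3. Stat3Δ/Δ pool 1 was the highest of all 6 and the other Stat3Δ/Δ pools were the lowest. A log2 fold change of -0.16 (standard error 0.29) resulted, which turned to 0.040 within the shared title number. The second overlapped as well and gave -0.48 (standard error 0.35).

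**Figure D2:**
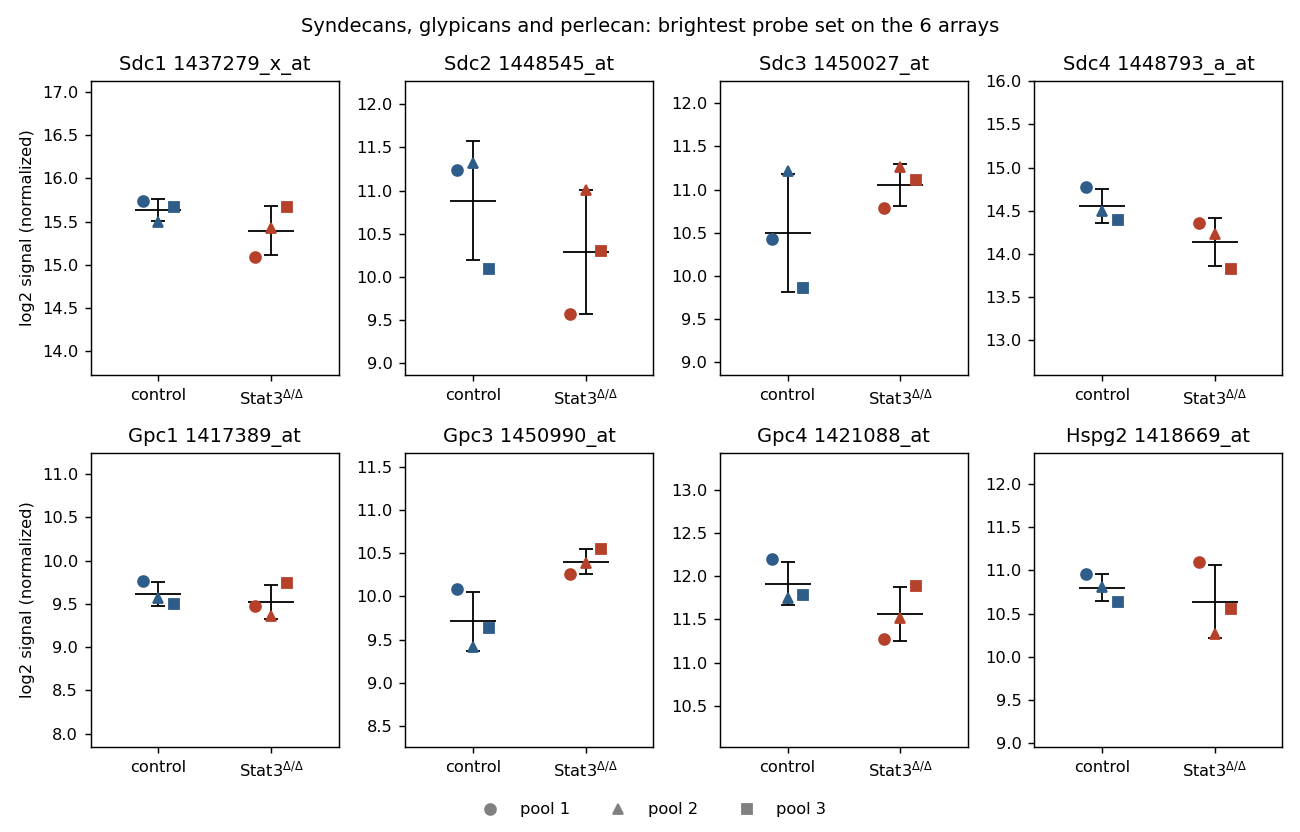
Normalized log2 signal of the brightest probe set of each syndecan, glypican and perlecan (Hspg2) on each array, with control pools in blue, Stat3Δ/Δ pools in red, the mean as a bar and the SD (n = 3) as whiskers; each panel spans the same number of log2 units. The groups separate for Sdc4, which is lower, and for Gpc3, which is higher, in Stat3Δ/Δ cells.

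Over all 25 probe sets, 15 had a log2 fold change below 0 and 10 above, with a median of -0.16, against -0.017 over the 45037 probe sets tested. The groups did not overlap for 3 lower probe sets (2 of Sulf1 and 1 of Sdc4), and 7.66% of all probe sets separated in this direction. They did not overlap for 1 higher probe set (Gpc3), with 5.99% of all probe sets. At unadjusted thresholds (a p-value no higher than 0.05 and a fold no lower than 1.5), the 2 brighter Sulf1 probe sets were lower (4.22% of all probe sets) and Gpc3 was higher (4.14%). With the FDR of at most 10% that the study also used, limma called 0 of the 25, and the methods' t-test called 0 as well. Over all probe sets limma called 0.00222% higher and 0% lower. The study set the FDR aside for mRNAs with a consistent change in several probe sets. These member counts rest on the contrast that chose the members, and nothing is read from them. Neither Gpc3 nor any other member was past these unadjusted thresholds in the higher direction without Stat3Δ/Δ pool 2, Stat3Δ/Δ pool 3 or control pool 3, and without control pool 2 it was 2 probe sets of Sdc3 that passed. Leaving out any 1 pool kept the brightest Sulf1 probe set between -1.41 and -1.28. Of the 25 probe sets, 22 had a mean signal at or above the median of all probe sets, and 2, 1 each of Sulf1 and Sdc2, lay under the 20th percentile.

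**Figure D3:**
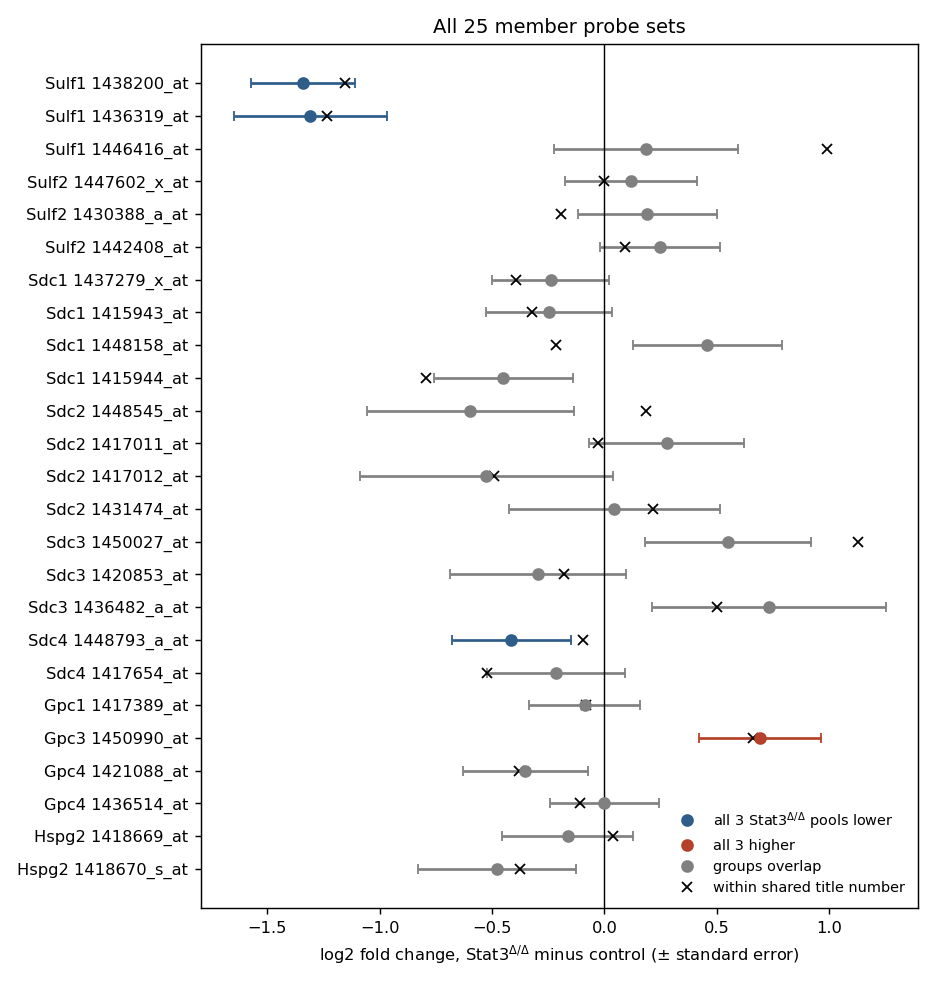
Log2 fold change, Stat3Δ/Δ minus control, of all 25 probe sets with its standard error (n = 3 pools in each group) on the log2(signal + 69.9) scale; blue points have all 3 Stat3Δ/Δ pools below the controls, red points all 3 above, and crosses are the values within the 3 arrays with a common leading title number. Rows of a gene run from its brightest probe set down; the 2 upper Sulf1 rows stand at -1.34 and -1.31, and the other probe sets lie between -0.60 and 0.73.

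Sulf1 is known to be made by mesenchymal cells. Most listed markers of fibroblasts, mesothelial cells and ciliated cells had lower signals in the Stat3Δ/Δ pools. Of 14 fibroblast markers, 7 were lower (5.54% of all genes) and 0 higher (2.15%) at the unadjusted thresholds. Their median log2 fold change was -0.94, against -0.085 over all genes. Their summed signal ran from 42.9% to 65.6% of the control mean in Stat3Δ/Δ pools and from 88.3% to 107.1% in control pools. Col6a1, whose groups overlapped, weighs most in this sum, at a mean signal of 23945 against 6831 for Mgp, the next brightest. The 3 brightest markers of this list, Col6a1, Mgp and Col3a1, gave -0.47, -1.37 and -1.74. Col1a2 and Dcn, matrix genes of fibroblasts with lower signals, gave -1.75 and -1.72. The fibroblast markers Fn1, Pdgfra and Tcf21 lay above 0, at 0.58, 0.69 and 0.38. Of 8 mesothelial markers, all lay below 0 and 6 were lower at these thresholds, with a median of -0.92, and their sum ran from 31.0% to 51.7% in Stat3Δ/Δ and from 91.2% to 114.1% in control pools.

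The brightest Sulf1 probe set itself stood at 44.1%, 37.0% and 33.9% of the control mean in Stat3Δ/Δ pools 1 to 3. Pool 1, the lowest for the fibroblast and mesothelial marker sums, was the highest of the 3 for this probe set. For the second Sulf1 probe set, Stat3Δ/Δ pool 1 was the lowest and pool 2 the highest, as for both sums. Ciliated cell markers summed to 39.3% to 54.7% in Stat3Δ/Δ pools and to 70.1% to 136.1% in control pools. Of these 8 markers, 5 were lower (5.54% of all genes) and 0 higher at the unadjusted thresholds, with a median log2 fold change of -1.01. Endothelial markers summed to 70.2% to 89.7% in Stat3Δ/Δ pools and to 93.8% to 110.5% in control pools. Of 9 alveolar macrophage markers, 8 lay above 0 with a median of 0.49. At the unadjusted thresholds 2 were higher (Cd68 at 0.81 and Marco at 0.75) and 0 lower, against 2.15% and 5.54% of all genes. The sum of these 9 ran from 98.4% to 117.6% in Stat3Δ/Δ pools and from 96.0% to 102.2% in control pools, with Lyz2, at -0.045, the brightest of them. The type II cell markers ran from 77.2% to 102.9% in Stat3Δ/Δ pools and from 94.6% to 104.2% in control pools. Their median log2 fold change, on normalized values, was -0.038. All these sums are of signals before normalization between arrays. Of the remaining lists, airway secretory, lymphocyte and type I cell markers had median log2 fold changes of -0.32, 0.36 and 0.091. Within the shared title number the fibroblast median was -0.69 and the mesothelial -1.11. The part of these cells, and of RNA integrity, in the Sulf1 values was not tested.

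**Figure D4:**
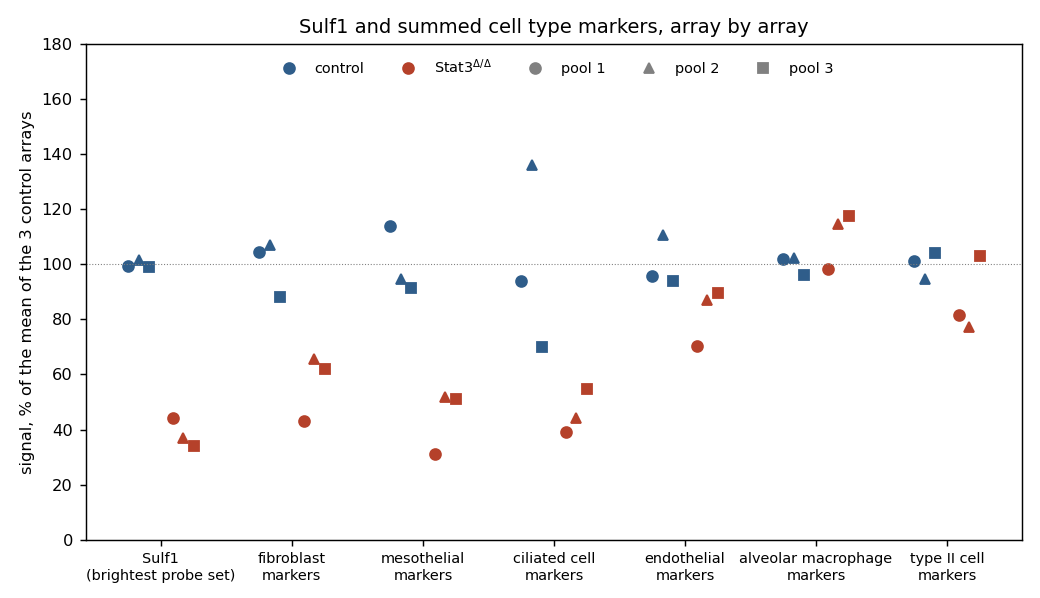
Signal of the brightest Sulf1 probe set and summed signals of 6 lists of cell type markers (the brightest probe set of each gene) on each array, as a percentage of the mean of the 3 control arrays, with control pools in blue and Stat3Δ/Δ pools in red. Sulf1 stands at 33.9% to 44.1% in Stat3Δ/Δ pools, the fibroblast markers at 42.9% to 65.6% and the mesothelial markers at 31.0% to 51.7%.

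The genes that build and remodel heparan sulfate were taken from lists of 48 genes, of which 44 were measured by a probe set that names them alone. Of these 44, each by its brightest probe set, 29 had a log2 fold change below 0 and 15 above, with a median of -0.14, against -0.085 over all genes. At the unadjusted thresholds 2 were lower and 1 was higher, against 5.54% and 2.15% of all genes. The groups did not overlap for 6 lower genes and 1 higher gene, against 10.2% and 4.23% of all genes. With the FDR limma called 0, as did the methods' t-test. The 3 genes past the unadjusted thresholds encode 3-O-sulfotransferases, which add the rare 3-O-sulfate group in the last step of chain modification. Of the other enzymes of this kind measured, Hs3st2 gave 0.17 and Hs3st3a1 -0.71, and both overlapped. Nothing on this enzyme group is read from these counts. The unadjusted count was 1 without control pool 2 and 6 without control pool 3.

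Hs3st6 had signals of 454.1, 517.3 and 496 in Stat3Δ/Δ pools 1 to 3 and 952.4, 1088 and 899.7 in control pools 1 to 3, so that the groups lay well apart. It gave -0.99 (standard error 0.25), with an adjusted p of 0.467 from limma. Hs3st1 had 688.2, 510.2 and 714.7 in Stat3Δ/Δ cells and 989.7, 1029.4 and 885.9 in control cells. The difference was -0.63 (standard error 0.26), with an adjusted p of 0.578 from limma. Hs3st3b1 ran the other way, with 1057.2, 851.7 and 597.3 in Stat3Δ/Δ cells and 383.2, 264.9 and 506 in control cells. Its log2 fold change was 0.90 (standard error 0.29), with an adjusted p of 0.516 from limma. The other 3 probe sets of Hs3st3b1 gave -0.12, 0.58 and 0.05 and overlapped. Within the shared title number Hs3st6, Hs3st1 and Hs3st3b1 gave -0.80, -0.51 and 0.83. None of the 3 was past the unadjusted thresholds when the title number was a term of the fit. The group difference of that fit rests on the arrays of the shared number alone.

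By step of the pathway, the median log2 fold change was -0.37 for 5 enzymes of the linkage region, which joins the chain to the core protein, and all 5 lay below 0. It was -0.10 for 5 polymerases of the chain and -0.21 for 13 enzymes of chain modification. The lysosomal enzymes of degradation, heparanases and sulfatase activators had a median of -0.38 over 10 genes, 8 of them below 0. Sumf1, which activates all sulfatases, SULF1 included, gave -0.25 (standard error 0.29). Other carriers of heparan sulfate had a median of -0.10 over 7 genes, of which Gpc2 and Gpc5 lay under the 20th percentile of mean signal. The cytoplasmic partners of the syndecans had 0.24 over 4 genes. By brightest probe sets, none of these lists but that of modification enzymes held a gene past the unadjusted thresholds.

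Among the 49 other probe sets of these genes, 4 were higher and 1 was lower at the unadjusted thresholds, and 0 with the FDR. Over all probe sets, 4.14% were higher and 4.22% lower at the unadjusted thresholds. The 4 higher ones include 2 of Cask, a scaffold kinase that binds the cytoplasmic tail of syndecans. The one with the higher fold had signals of 1755, 1000.6 and 1083.4 in Stat3Δ/Δ pools 1 to 3 and 46.8, 458.5 and 713.3 in control pools 1 to 3. Control pool 1 was far below the rest. The difference was 1.79 (standard error 0.62) on the log2 scale, with 0.85 within the shared title number, and the second gave 0.68 (standard error 0.26) with 0.62. The brightest probe set of Cask gave 0.16 (standard error 0.25) and overlapped. The other higher ones, of Extl3 and Gpc6, gave 0.96 and 0.72, where the brightest probe sets of these genes gave -0.44 and -0.18. The lower one, of Ids, gave -0.81 at a mean signal under the 20th percentile, where the brightest gave 0.028. These probe sets were named after their values were seen, and nothing is read from their counts.

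**Figure D5:**
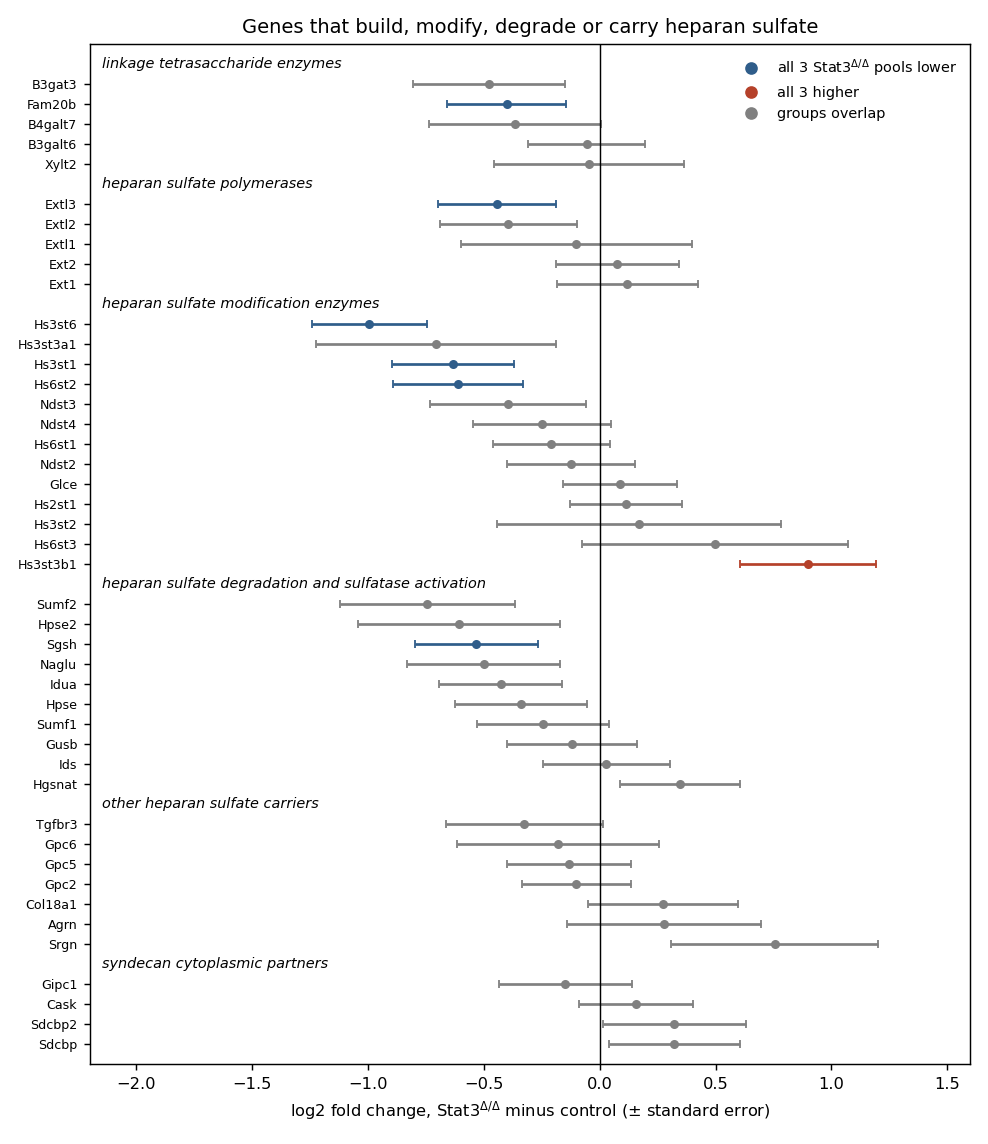
Log2 fold change, Stat3Δ/Δ minus control, of the brightest probe set of 44 genes in 6 lists, with its standard error (n = 3 pools in each group) on the log2(signal + 69.9) scale; blue points have all 3 Stat3Δ/Δ pools below the controls, red points all 3 above. Hs3st6, at -0.99, and Hs3st3b1, at 0.90, have the lowest and the highest values of the plot.

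The genes whose log2 signals over the 6 arrays followed the brightest Sulf1 probe set most closely were Dnajb4, Tex13a, Adprm, Kat7, Lasp1, Spaar, Dpy19l3 and Eprs, with Pearson r from 0.982 to 0.991 across these arrays. The likeness is a description over 6 arrays that carry the difference between the groups, and 78 of the 20046 probe sets compared reached an r of 0.95. None of the 8 is a member or on the lists of markers.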

How the data were processed

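RNA of 3 Stat3Δ/Δ and 3 control pools was measured on MOE430 arrays. The deposited values are signal intensities from Affymetrix Microarray Suite 5.0, run by the authors and named MAS5 in the labels. All 6 arrays have the same mean signal of 1500 after 2% trimming. The RMA values behind the study's own tests were not used here. Tests covered 45037 probe sets, without 64 controls. Values were log2(signal + 69.9), where 69.9 is the 20th percentile of all signals, quantile normalized between arrays. Fold changes of dim genes are thereby understated.

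Groups were compared by limma 3.58.1 (R 4.3.3), with the Benjamini-Hochberg adjustment over the whole array. The thresholds were those of the study (a p-value no higher than 0.05, an FDR no higher than 10% and a fold no lower than 1.5), also without the FDR. The fit was tested on simulated data with 200 changed probe sets. In lists, a gene was taken by its brightest probe set, and 34945 probe sets named 1 gene. Detection calls were not used here. Precision is limited by how many arrays there are.

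The members and lists were chosen with earlier results of these data known. The text names all member probe sets, Stat3, up to 4 genes of each heparan sulfate list past the unadjusted thresholds, markers, and 8 genes most like Sulf1 among probe sets above the median level; other genes were named after their values were seen. Alternatives changed the pseudocount, normalization, a filter on low signal, the test, array weights, blocks on the replicate and the title number, the probe set of a gene and the arrays used. Promoter sequences came from RefSeq (GRCm38.p6). Tables and figures used Python 3.11.15, pandas 2.3.3 and matplotlib 3.10.9.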

Additional observations from a re-analysis of the deposited data

How the results depend on the processing

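The count of 0 members and 0 heparan sulfate genes past the FDR was the same under all alternatives run. The 2 Sulf1 probe sets past the unadjusted thresholds became 1 with the filter on low signal, which leaves the dimmer of them out, 1 when the title number was a fixed block and 1 within the shared number. Leaving out 1 pool gave 2 to 3 lower members, where the added one, without Stat3Δ/Δ pool 3, was a probe set of Sdc1. The 1 higher member became 0 with the pseudocount at the median signal, with arrays centred on their medians, with the replicate block and with the title number blocked, and leaving out 1 pool gave 0 to 2. The 3 heparan sulfate genes became 0 with the title number blocked, and leaving out 1 pool gave 1 to 6. With the title number blocked, the group difference rests on the arrays of the shared number alone, 2 pools against 1. For the brightest Sulf1 probe set the log2 fold change was -1.49 with no pseudocount, -0.97 with the pseudocount at the median signal, -1.20 with the title number blocked and -1.15 within the shared number. Where no reason is given, the cause was not tested. Samples of the same replicate number did not deviate together (correlations of -0.084, -0.0088 and -0.24), so the replicate block pairs nothing known, and it left 2 lower and 0 higher members. Over all probe sets, 1901 were lower and 1866 higher without FDR, 1376 and 2319 with no normalization between arrays, and 2286 and 1536 with arrays centred on their medians. Of the other values, 598 moved by no more than the spread between pools and 55 by more.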
